A study of Mus musculus with 16 samples.

Results

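The mitochondrial ribosomal protein genes of mouse CD8+ T cells are described here across cells sorted by an autophagy reporter. Members were all genes of the RNA count table whose symbol starts with Mrpl (large subunit) or Mrps (small subunit), without pseudogenes. The rule found 78 genes among 13275 listed, 49 with an Mrpl symbol and 29 with an Mrps symbol. The cells came from mice that carry both the Pmel transgenic T cell receptor, which recognises a melanocyte antigen, and the LC3-GFP-RFP reporter, and purified T cells were activated over 3 days by anti-CD3 and anti-CD28 (2 µg/ml of each) with 100 IU/ml of IL2. Every group was exposed to carbon monoxide (CO) for 24 h and then separated by flow cytometry into LC3-GFP positive cells and cells negative for LC3-GFP, called positive and negative below. LC3 is the protein attached to autophagosome membranes. The RNA libraries numbered 2 for each population. Open chromatin was mapped by ATAC-seq in 2 and 2 libraries of sorted cells (in vitro) and in 4 and 4 libraries of Vβ13+CD8+ cells retrieved from B16-F10 melanomas of C57BL/6 mice, each animal giving its own library, 15 days after transfer of positive or negative cells (in vivo). Tumours were 12 days old at transfer. Mouse age is not given in the sources used here, and cells without CO were not analysed here.

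The mitochondrial ribosome translates the few messages of mitochondrial DNA, which encode core subunits of the respiratory chain and of ATP synthase. Its rRNAs are made in the organelle, but all of its proteins are encoded in the nucleus, made in the cytosol and imported. Some are homologues of bacterial ribosomal proteins and others were gained in the mitochondrial lineage. Activated T cells enlarge their mitochondria and need mitochondrial translation for proliferation and effector function. Nuclear genes for mitochondrial proteins are commonly driven by ETS-family factors such as GABP, by NRF1 and by YY1.

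Promoters of 7 members are shown because they carry the motifs counted further on, so they do not stand for the members as a whole. Mrps6, Mrps7, Mrps12, Mrps22 and Mrpl3 were among the members with higher RNA in positive cells, Mrpl22 lines the nascent peptide exit, and Mrps11 shares its promoter region with Mrpl46. Mrps11 was chosen after its values were seen. Of the other members with higher RNA, Mrpl12, Mrpl16, Mrpl41 and Mrps2 held none of the motifs and Mrpl20 held only an E-box. Mrpl2, Mrpl40 and Mrps18b held matches and are not shown either, and Mrpl13 had no matched promoter. Each sequence runs 5′ to 3′ on the gene's own strand from 250 bases before to 50 after the RefSeq start, in GRCm38.p6. RefSeq starts can differ from those listed in the count table, by 40 bases for Mrps12 and by 10 for Mrpl22. The positions are chr16:92058086-92058385 on the plus strand for Mrps6, chr11:115603890-115604189 on the plus strand for Mrps7, chr7:28741772-28742071 on the minus strand for Mrps12 and chr9:98601630-98601929 on the minus strand for Mrps22. Those of the others are chr9:105053018-105053317 for Mrpl3, chr11:58171414-58171713 for Mrpl22 and chr7:78782881-78783180 for Mrps11, all on the plus strand. Capitals mark exact matches, on either strand, to the motifs CCGGAAG (ETS), GCATGCGC (NRF1), AAGATGGC (YY1) and GGGCGG (SP1).
Mrps6: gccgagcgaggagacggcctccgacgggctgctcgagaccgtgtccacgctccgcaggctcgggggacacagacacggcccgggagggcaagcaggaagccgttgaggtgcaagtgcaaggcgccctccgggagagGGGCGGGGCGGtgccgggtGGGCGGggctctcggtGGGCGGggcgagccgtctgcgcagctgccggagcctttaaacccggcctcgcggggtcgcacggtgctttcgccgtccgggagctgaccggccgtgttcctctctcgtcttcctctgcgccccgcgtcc
Mrps7: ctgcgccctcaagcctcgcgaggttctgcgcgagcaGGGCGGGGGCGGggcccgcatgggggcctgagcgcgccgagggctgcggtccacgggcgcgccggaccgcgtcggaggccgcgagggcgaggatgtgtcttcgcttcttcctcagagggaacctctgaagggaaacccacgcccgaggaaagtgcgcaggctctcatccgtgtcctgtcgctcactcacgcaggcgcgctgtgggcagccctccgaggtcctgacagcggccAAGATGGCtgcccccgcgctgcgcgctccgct
Mrps12: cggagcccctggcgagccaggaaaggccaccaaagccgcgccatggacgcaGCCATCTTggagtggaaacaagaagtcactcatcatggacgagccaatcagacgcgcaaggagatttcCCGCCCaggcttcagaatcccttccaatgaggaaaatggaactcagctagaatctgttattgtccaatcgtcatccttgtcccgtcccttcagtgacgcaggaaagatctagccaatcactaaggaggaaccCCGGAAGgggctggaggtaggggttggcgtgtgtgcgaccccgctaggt
Mrps22: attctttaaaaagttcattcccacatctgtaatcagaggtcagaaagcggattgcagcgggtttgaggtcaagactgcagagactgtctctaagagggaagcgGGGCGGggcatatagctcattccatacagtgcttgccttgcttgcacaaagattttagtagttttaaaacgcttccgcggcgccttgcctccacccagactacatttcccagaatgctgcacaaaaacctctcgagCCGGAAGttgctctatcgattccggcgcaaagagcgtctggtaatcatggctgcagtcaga
Mrpl3: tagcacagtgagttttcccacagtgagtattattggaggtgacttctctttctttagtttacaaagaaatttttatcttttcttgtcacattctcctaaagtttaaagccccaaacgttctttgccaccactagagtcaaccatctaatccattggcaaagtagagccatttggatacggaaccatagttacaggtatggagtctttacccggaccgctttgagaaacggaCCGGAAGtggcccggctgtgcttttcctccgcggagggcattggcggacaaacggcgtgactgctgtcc
Mrpl22: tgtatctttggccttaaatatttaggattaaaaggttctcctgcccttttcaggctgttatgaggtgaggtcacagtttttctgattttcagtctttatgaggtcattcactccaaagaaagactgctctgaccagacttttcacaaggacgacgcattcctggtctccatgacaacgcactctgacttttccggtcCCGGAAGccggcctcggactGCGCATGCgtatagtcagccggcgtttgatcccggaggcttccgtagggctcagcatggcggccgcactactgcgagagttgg
Mrps11: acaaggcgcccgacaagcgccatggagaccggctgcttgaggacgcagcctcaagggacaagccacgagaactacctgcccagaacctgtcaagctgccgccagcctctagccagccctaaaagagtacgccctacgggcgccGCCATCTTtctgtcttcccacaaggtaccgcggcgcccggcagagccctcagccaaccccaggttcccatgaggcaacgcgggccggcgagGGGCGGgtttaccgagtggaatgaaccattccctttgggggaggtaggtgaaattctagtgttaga

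In these sequences the ETS match begins 11 bases before the start in Mrps22, 19 before in Mrpl3, 53 before in Mrpl22 and 1 base after it in Mrps12. Mrpl22 also holds an NRF1 match 33 bases before the start, on the minus strand. Mrps7 holds a YY1 match 18 bases after its start. The matches of Mrps6 are 4 SP1 strings, the farthest beginning 114 bases before the start, and its window holds none of the ETS, NRF1 or YY1 strings.

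Each RNA library held 14567545 to 17557633 estimated counts, and the members together took 0.327% and 0.333% of them in the positive libraries and 0.290% and 0.298% in the negative ones. Whether the 2 RNA libraries of a group had separate animals or cultures as their source is not stated in the labels. P-values therefore cover only the spread among the sequenced samples, and that spread may be technical. CD8 T cell markers were present in every library, with summed levels of 3738 to 3742 CPM (counts scaled to library size) in positive and 4130 to 4201 in negative cells, and 7 of 8 were lower in positive cells (1 without positive replicate 1, 2 without positive replicate 2). Of 4 B cell markers reported, 3 were higher in positive cells, and the 4 summed to 10.55 to 11.48 against 4.14 to 5.45 CPM. Cd22 was at 0 in negative replicate 2 and Ms4a1 in negative replicate 1. Of the 2 myeloid markers tested, Cd68 was lower, and the listed myeloid markers summed to 2.95 to 3.77 against 7.38 to 7.76 CPM. In the CD4 T cell list Cd4 was higher (4.40 and 3.39 against 0.971 and 0.699 CPM) and Zbtb7b lower (54.2 and 50.2 against 76.2 and 69.5 CPM). The list summed to 53.9 to 59.1 against 70.6 to 78.5 CPM, most of it from Zbtb7b. Both NK cell markers tested, Klrb1c and Klrk1, were lower. Their sums of 65.2 to 71.95 against 82.5 to 98.7 CPM came mostly from Klrk1 (63.7 and 69.0 against 76.7 and 91.0 CPM). Neither of the 2 melanoma and stroma markers tested was called. Rn45s, the precursor of cytosolic rRNA, took 1.43% and 1.51% of counts in positive and 3.20% and 3.58% in negative libraries. The part of these differences in the results was not tested. The 14 members called below were called with Rn45s left out of the table as well. Removing 1 gene hardly alters the fits of the others, so this cannot test the part of Rn45s. In bulk samples, fewer cells of a type and less RNA per cell cannot be told apart.

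All 78 members passed the filter on low counts, with 59 to 2032 counts in a library, so none passed only through 1 group. In LC3-GFP positive cells 14 members rose and none fell (edgeR quasi-likelihood test, Benjamini-Hochberg adjusted over 12022 tested genes, threshold 0.05). That is 17.9% of the members, against 11.3% of all tested genes higher and 13.6% lower. The remaining 64 were not called. Of these, 45 had a positive and 19 a negative log2 difference, and the smallest adjusted p among the 19 was 0.127, in edgeR, for Mrpl52, named after its value was seen. At an unadjusted p under 0.05, edgeR put 1 member lower (Mrpl52) and 24 higher, and DESeq2 put 0 lower and 14 higher. The median log2 difference, positive minus negative, was 0.11 over the members, with a range from -0.19 to 0.68, and 0.0023 over all tested genes. Both positive libraries lay above both negative libraries for 41 members, or 52.6%, against 30.6% of all tested genes. They lay below for 7 members, against 31.0% of all tested genes, and the groups overlapped for 30. Changes were small, and 8 members were called at more than 1.2-fold, against 6.12% of all tested genes. DESeq2 called 4 members. Scaled by library size alone, 26 members rose, and 65.1% of all calls were then higher, against 45.4% under the TMM scaling used here. With positive replicate 1 left out edgeR called 7, and with positive replicate 2 left out it called 8.

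**Figure D1:**
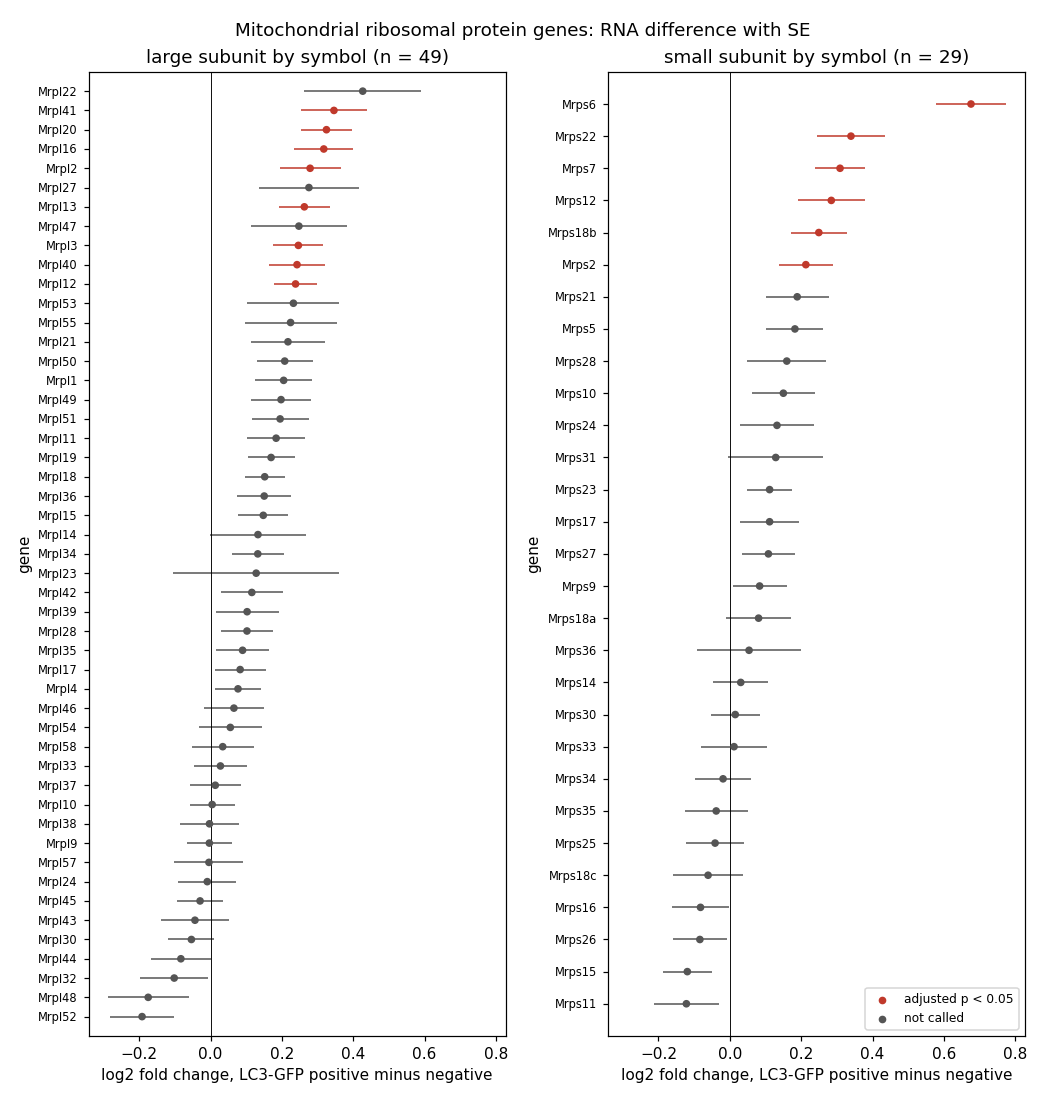
Log2 fold change of RNA (horizontal axis, LC3-GFP positive minus negative, 2 libraries each) for each gene (vertical axis), with bars of 1 standard error and red points for adjusted p under 0.05 in edgeR. Most points lie right of 0, the 14 red points all do, and Mrps6 at 0.68 lies farthest out.

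Genes of both subunits rose and none fell, where 11.3% of all tested genes rose and 13.6% fell. Of the 49 Mrpl genes 8 rose (16.3%), and of the 29 Mrps genes 6 rose (20.7%). Median log2 differences were 0.13 and 0.11, and the medians were 0.024 apart, where replicate libraries gave a pooled SD of 0.014 for that distance. Summed over genes, the large subunit stood at 2079 and 2091 CPM in positive and 1908 and 1948 CPM in negative libraries. The small subunit stood at 1123 and 1172 against 1070 and 1085 CPM. Both sums were higher in each positive library than in each negative library. The ratio of the large to the small sum was 1.85 and 1.78 in positive and 1.78 and 1.79 in negative libraries, and these values overlapped. Left without positive replicate 1 the counts were 4 large and 3 small, without positive replicate 2 they were 5 and 3, and without negative replicate 2 the large count was 13.

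**Figure D2:**
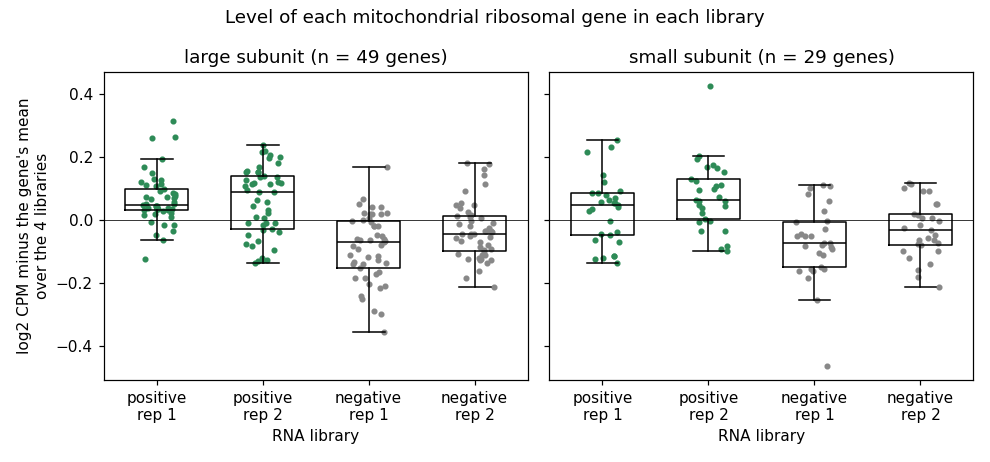
Level of each member in each RNA library, as log2 CPM minus that gene's mean over the 4 libraries (vertical axis), for the 49 large and 29 small subunit genes, with 1 point per gene and boxes of quartiles. Points of positive libraries sit mostly above 0 and points of negative libraries mostly below it, in both subunits, with wide overlap.

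Symbols do not follow the structure for Mrps18a and Mrps30, whose proteins sit in the large subunit. Mrps18a measured 29.5 and 27.8 CPM in positive and 26.3 and 27.97 CPM in negative libraries, with a log2 difference of 0.08 ± 0.09 (SE) and an adjusted p of 0.562 in edgeR. Mrps30 measured 64.8 and 69.9 against 69.8 and 63.4 CPM (log2 0.02 ± 0.07, adjusted p = 0.903 in edgeR). Both genes had overlapping groups. Placed by structure, 8 of 51 large (15.7%) and 6 of 27 small subunit genes (22.2%) rose, against 11.3% of all tested genes. Their medians were 0.13 and 0.11. The 27 still include Mrps36, whose protein is described in the next paragraph.

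Among large subunit genes whose proteins have bacterial homologues 6 of 29 rose, and among those of mitochondria-specific proteins 2 of 21, with medians of 0.15 and 0.06. Those shares are 20.7% and 9.52%, against 11.3% of all tested genes. In the small subunit the counts were 4 of 16 (25%) and 2 of 10 (20%), with medians of 0.14 and 0.06. Mrps18a and Mrps18b, paralogues within the S18 family, were classed as mitochondria-specific and Mrps18c as the homologue. With those 2 moved to the homologues, a choice made after seeing the data, the counts were 6 of 30 and 2 of 20 in the large and 5 of 17 and 1 of 9 in the small subunit, and the mitochondria-specific medians were 0.045 and 0.012. The difference between these classes was not tested. Without positive replicate 1 the 4 counts were 3, 1, 2 and 1, and without positive replicate 2 they were 4, 1, 2 and 1. Without negative replicate 1 they were 6, 2, 3 and 1, and without negative replicate 2 they were 8, 5, 3 and 2. DESeq2 gave 2, 0, 2 and 0, and scaling by library size alone 13, 5, 6 and 2. With 1 library left out, the mitochondria-specific medians ran from 0.035 (without positive replicate 1) to 0.0795 (without positive replicate 2) in the large subunit. In the small subunit they ran from 0.0338 (without negative replicate 1) to 0.085 (without positive replicate 1). Scaled by library size alone, these medians were 0.118 in the large and 0.122 in the small subunit. Mrpl55 and Mrps36 were left out of both classes. Mrps36, now known as a component of the 2-oxoglutarate dehydrogenase complex, measured 11.4 and 10.99 against 9.84 and 11.8 CPM and was not called (adjusted p = 0.831 in edgeR).

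Small subunit members were led by Mrps6 (chr16:92058336-92112227 in mm10, plus strand), the homologue of the bacterial platform protein S6. It measured 36.0 and 40.5 CPM in positive and 21.9 and 26.0 CPM in negative libraries. Its groups were well apart, and the change of 1.60-fold (log2 0.68 ± 0.10, adjusted p = 6.41e-05 in edgeR) was the highest log2 difference among the 78. The counts of Mrps6 are uncertain, because its annotated body shares 29138 bases with Slc5a3, a myo-inositol transporter gene on the same strand whose listed start lies 14 bases upstream. Slc5a3 itself measured 54.5 and 52.4 against 42.6 and 39.7 CPM (log2 0.38 ± 0.07, adjusted p = 9.66e-04 in edgeR). Which of the 2 genes the shared reads came from was not tested.

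Mrps7 (chr11:115604140-115608036, plus strand), homologue of the bacterial head protein S7, measured 52.8 and 53.7 CPM in positive and 43.1 and 42.8 CPM in negative libraries. Replicates lay close together, and the difference was 0.31 ± 0.07 on the log2 scale (adjusted p = 0.00356 in edgeR). Its body overlaps Mif4gd, on the other strand, by 118 bases. Mrps6 and Mrps7 had an adjusted p under 0.05 in all 11 planned fits, as did Mrpl12 and Mrpl20 of the large subunit. Of these 4, Mrpl12 at 1.18-fold lay under the 1.2-fold limit.

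Mrps22, a mitochondria-specific protein (chr9:98588730-98601679, minus strand), measured 29.3 and 26.9 against 22.5 and 22.0 CPM, a log2 difference of 0.34 ± 0.09 (adjusted p = 0.0135 in edgeR). Mrps18b, a small subunit paralogue of the S18 family (chr17:35910380-35916440, minus strand), measured 49.2 and 54.9 against 42.0 and 45.6 CPM (log2 0.25 ± 0.08, adjusted p = 0.0254 in edgeR). Mrps2, homologue of bacterial S2 (chr2:28468066-28471177, plus strand), measured 47.3 and 51.8 against 43.6 and 41.7 CPM (log2 0.21 ± 0.08, adjusted p = 0.047 in edgeR). None of these genes overlapped between groups, yet each call was lost when 1 library was left out. Without positive replicate 1 the adjusted p in edgeR was 0.169 for Mrps22 and 0.0562 for Mrps2. Without positive replicate 2 it was 0.292 for Mrps18b and 0.383 for Mrps2, without negative replicate 1 it was 0.107 for Mrps18b, and without negative replicate 2 it was 0.118 for Mrps2. The other S18 paralogue of the small subunit, Mrps18c, measured 23.5 and 26.6 against 25.1 and 27.2 CPM, with overlapping groups (log2 -0.06 ± 0.10).

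At the decoding site, Mrps12 (chr7:28739641-28741781, minus strand), homologue of S12, which monitors codon and anticodon pairing, measured 26.3 and 27.1 CPM in positive and 21.6 and 22.2 CPM in negative libraries. The replicates of a group lay close together and the groups apart (log2 0.28 ± 0.09, adjusted p = 0.0342 in edgeR). The call was lost without positive replicate 1 (0.118), positive replicate 2 (0.186) or negative replicate 1 (0.0884). Along the mRNA path, Mrps5 measured 36.9 and 37.2 against 32.4 and 33.0 CPM and did not pass the test (log2 0.18 ± 0.08, adjusted p = 0.107 in edgeR). Mrps24, homologue of S3 at the mRNA entry, measured 31.6 and 25.6 against 26.4 and 25.9 CPM, and positive replicate 1 alone stood above the rest (log2 0.13 ± 0.10, adjusted p = 0.385 in edgeR).

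In the large subunit, Mrpl20 (chr4:155802878-155808831, plus strand), homologue of an early rRNA-binding assembly protein, measured 60.5 and 63.5 CPM in positive and 46.9 and 52.2 CPM in negative libraries. The lower positive library still exceeded the higher negative library (log2 0.32 ± 0.07, adjusted p = 0.0029 in edgeR). Mrpl41, a mitochondria-specific protein (chr2:24972470-24975098, minus strand), measured 28.6 and 27.9 against 22.9 and 21.6 CPM (log2 0.35 ± 0.09, adjusted p = 0.0109 in edgeR). Mrpl16 (chr19:11770415-11774946, plus strand), whose bacterial homologue contacts tRNA in the large subunit, measured 36.8 and 36.4 against 28.5 and 30.4 CPM (log2 0.32 ± 0.08, adjusted p = 0.0091 in edgeR). Their positive replicates nearly coincided, but without positive replicate 1 the adjusted p in edgeR was 0.0887 for Mrpl41 and 0.0661 for Mrpl16.

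Proteins near the peptidyl transferase centre are represented by Mrpl2 and Mrpl3. Mrpl2 (chr17:46646221-46650132, plus strand) measured 37.6 and 43.0 against 32.8 and 33.4 CPM (log2 0.28 ± 0.09, adjusted p = 0.0226 in edgeR). Its positive libraries differed more than its negative ones, and without positive replicate 2 the adjusted p in edgeR was 0.312. Mrpl3 (chr9:105053268-105077476, plus strand) measured 58.3 and 59.1 against 51.5 and 47.4 CPM (log2 0.25 ± 0.07, adjusted p = 0.0151 in edgeR). Without positive replicate 1, positive replicate 2 or negative replicate 2 it was 0.069, 0.0849 and 0.072, in edgeR. Mrpl13 (chr15:55534095-55557312, minus strand), whose bacterial homologue joins the large subunit early, measured 54.1 and 54.6 against 44.1 and 46.6 CPM (log2 0.26 ± 0.07, adjusted p = 0.0107 in edgeR), and the call was lost without positive replicate 1 (0.0602) or 2 (0.0668). Mrpl40, a mitochondria-specific protein (chr16:18872018-18876637, minus strand), measured 44.5 and 49.98 against 39.9 and 39.8 CPM (log2 0.24 ± 0.08, adjusted p = 0.031 in edgeR). Its higher positive library was replicate 2, without which the adjusted p in edgeR was 0.358.

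The factor-binding stalk recruits elongation factors to the large subunit. Mrpl12, its repeated stalk protein, which also binds the mitochondrial RNA polymerase (chr11:120484669-120488754, plus strand), measured 95.7 and 95.8 CPM in positive and 77.5 and 85.0 CPM in negative libraries. The positive replicates nearly coincided (log2 0.24 ± 0.06, adjusted p = 0.0073 in edgeR). Mrpl11, at the stalk base, measured 34.7 and 35.5 against 31.1 and 30.7 CPM, with groups apart, and did not pass the test (log2 0.18 ± 0.08, adjusted p = 0.113 in edgeR). Mrpl10, the anchor to which the stalk protein binds, measured 71.8 and 68.8 against 72.2 and 68.0 CPM, and the groups overlapped fully (log2 0.0045 ± 0.063).

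At the peptide exit, Mrpl22 (chr11:58171654-58179581, plus strand) measured 10.1 and 9.48 CPM in positive and 6.60 and 8.04 CPM in negative libraries. Its log2 difference of 0.43 ± 0.16 was the highest of the large subunit but missed the threshold (adjusted p = 0.0653 in edgeR). Mrpl23, which also borders the exit, measured 5.63 and 4.27 against 3.82 and 5.31 CPM, and its low counts gave a wide error (log2 0.13 ± 0.23). Mrpl24 measured 41.9 and 37.0 against 40.1 and 39.4 CPM, and Mrpl45, which holds the ribosome to the inner membrane, 68.5 and 70.6 against 73.5 and 68.4 CPM. For these exit proteins other than Mrpl22 the groups overlapped and none was called.

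Members with the least change by log2 difference were Mrpl38 (-0.0030 ± 0.082), Mrpl9 (-0.0034 ± 0.063) and Mrpl10 in the large subunit. In the small subunit they were Mrps33 (0.012 ± 0.092), Mrps30 and Mrps34 (-0.019 ± 0.078). Mrpl9 measured 70.9 and 70.0 CPM in positive and 68.2 and 73.2 CPM in negative libraries, so that its positive values fell between the negative ones. Counts of 12 members are uncertain because their annotated bodies overlap another listed gene, and handling of shared reads and strand is not given in the sources used here. With these 12 left out, 12 members were called higher, and those no longer counted were Mrps6 and Mrps7.

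Among the other genes of mitochondrial translation, calls were made in both directions, to be read against the 11.3% higher and 13.6% lower of all tested genes. Of 5 mitoribosomal proteins with other symbols, 1 rose and 1 fell. Ptcd3, a small subunit protein, measured 81.9 and 85.1 against 74.95 and 70.97 CPM (log2 0.19 ± 0.06, adjusted p = 0.0259 in edgeR). Gadd45gip1, a large subunit protein, measured 78.2 and 78.4 against 92.4 and 85.2 CPM (log2 -0.18 ± 0.06, adjusted p = 0.0343 in edgeR). Of 28 assembly and rRNA modification genes, 3 rose (10.7%) and none fell (none lower either at an unadjusted p under 0.05 in edgeR or DESeq2). They were the pseudouridine synthase gene Trub2 (26.1 and 25.9 against 19.6 and 20.7 CPM), Fastkd2, which binds the large rRNA (29.4 and 26.6 against 24.5 and 21.5 CPM), and the GTPase gene Noa1 (56.7 and 59.1 against 52.4 and 48.0 CPM). Their log2 differences were 0.37, 0.28 and 0.20. Of 15 translation factors and helpers, 2 rose (13.3%) and 1 fell (6.67%). Guf1, a ribosome-bound GTPase, had a log2 difference of 0.23, and Lrpprc, which stabilises mitochondrial mRNAs, 0.15. Oxa1l, the insertase that receives nascent chains at the inner membrane, measured 50.5 and 56.6 against 64.7 and 69.6 CPM (log2 -0.33 ± 0.07, adjusted p = 0.0029 in edgeR).

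Of 11 genes of mitochondrial DNA transcription and replication, Tfam, which packages that DNA, was the 1 that rose (9.09% of the list, 75.05 and 66.5 against 59.1 and 61.2 CPM, log2 0.24). Of 9 regulators of nuclear mitochondrial genes, 3 rose (33.3%). Nrf1 measured 73.4 and 74.6 against 65.8 and 59.0 CPM, Pprc1, a coactivator, 142 and 144 against 130 and 118 CPM, and Myc 580 and 574 against 526 and 494 CPM. The ETS factor gene Gabpa measured 101.7 and 105.4 against 103.2 and 96.1 CPM and Yy1 144 and 143 against 157 and 135 CPM. Both overlapped between groups and neither was called. DESeq2 called none of the assembly genes, of the proteins with other symbols or of the DNA transcription genes, only Oxa1l among the translation factors, and 2 of the regulators. Every call among these translation, transcription and regulator genes was lost in at least 1 fit that left out a library. Without positive replicate 1 they were lost for all of them except Nrf1, with adjusted p in edgeR from 0.0661 for Pprc1 to 0.426 for Lrpprc. Without positive replicate 2 the calls of Gadd45gip1, Guf1, Lrpprc, Myc, Noa1, Nrf1, Pprc1 and Ptcd3 were lost, from 0.0667 for Nrf1 to 0.247 for Noa1. Without negative replicate 1 those of Gadd45gip1 (0.200) and Guf1 (0.106) were lost. Without negative replicate 2 those of Fastkd2, Guf1, Lrpprc, Noa1, Nrf1, Pprc1 and Ptcd3 were lost, from 0.0579 for Pprc1 to 0.199 for Noa1.

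The gene groups most like the members gave other counts. Of 83 cytosolic ribosomal protein genes tested, 5 rose and 34 fell, with a median log2 difference of -0.14 (12 lower without positive replicate 1, 20 when scaled by library size alone). Of 77 oxidative phosphorylation subunit genes, 8 rose and 5 fell, with a median of 0.04. These counts were 3 and 2 without positive replicate 1, 3 and 4 without positive replicate 2, 19 and 6 without negative replicate 2, and 18 and 4 when scaled by library size alone. That median was 0.00035 without negative replicate 1, 0.022 without positive replicate 2, 0.081 without negative replicate 2 and 0.107 when scaled by library size alone. With all libraries and TMM scaling, 6.02% of the cytosolic ribosomal genes rose and 41% fell. That group was taken by Rpl and Rps symbols and so holds paralogue genes. Those that rose include the paralogues Rpl7l1 (log2 0.39) and Rps27l (log2 0.41), beside Rpl12, Rplp1 and Rps14. Of the oxidative phosphorylation genes 10.4% rose and 6.49% fell, against 11.3% and 13.6% of all tested genes. Members stood at 14 and 0 (17.9% and 0%) with a median of 0.11. The differences between these groups were not tested.

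**Figure D3:**
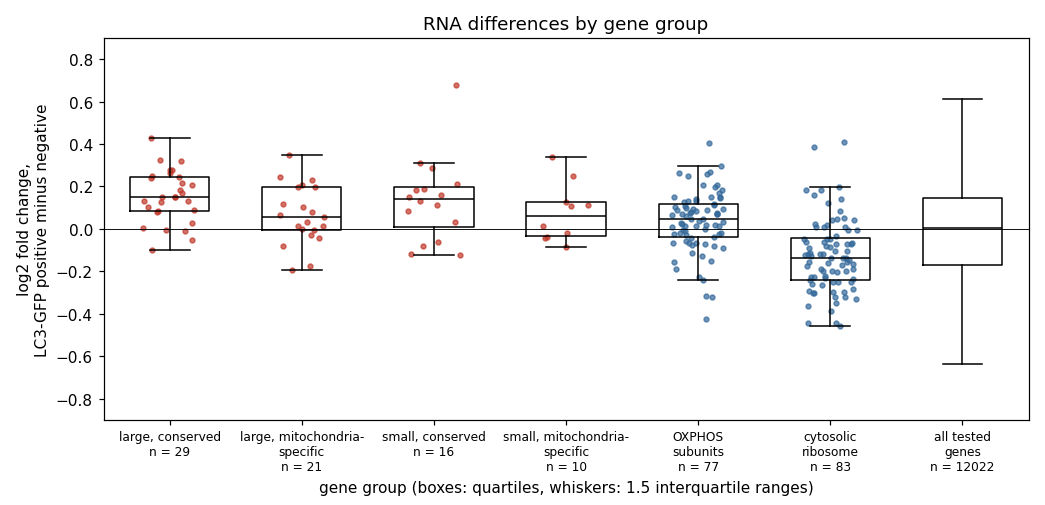
Log2 fold changes of RNA (vertical axis, LC3-GFP positive minus negative) by gene group, with 1 point per gene, boxes of quartiles and whiskers of 1.5 interquartile ranges (no points for all 12022 tested genes). Cytosolic ribosomal genes lie mostly below 0 (median -0.14) and the 4 mitochondrial ribosomal groups mostly above it.

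All 78 member promoters, taken as 250 bases before to 50 after the listed start, overlapped an ATAC peak in all 12 libraries. Among all 13275 listed genes 79.2% did so and 9.76% had a peak in none. Per library, 80.9% to 87.7% of all listed genes had a promoter peak. The lists held 27406 to 63761 peaks and read depth is unknown. No member was open in 1 population only. Regions with a peak in all positive and no negative library were found for 0.527% of genes in vitro and 0.0151% in vivo, and the reverse for 0.271% and 0.196%. With a background that low, 0 of 78 is near what all genes gave.

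Peaks were ranked by the authors' fold enrichment within each library's own list. Member peaks had median percentiles of 85.1 to 89.9 over the 12 libraries, against 69.9 to 76.8 for all genes with a promoter peak. The large subunit ran from 81.4 to 88.2 and the small subunit from 84.9 to 93.7. The median summit lay 35.5 to 62.5 bases after the start in the 12 libraries. The highest ranks of the 78 were medians over libraries of 99.8 for Mrpl44, 99.5 for Mrpl11, 99.2 for Mrps17 and 99.0 for Mrps9. At the other end, Mrpl49 had 15.8, Mrps18b 27.5 and Mrpl34 34.6, the last with its median summit 1625 bases before the start. These members were chosen after their values were seen.

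Among the called members the ranks ran over a wide range. The peak of Mrps6 had percentiles of 55.1 and 49.2 in the in vitro positive and 26.0 and 36.6 in the in vitro negative libraries. In vivo it lay between 34.9 and 47.6 in positive and between 28.4 and 77.2 in negative libraries. Mrps7 lay at 31.3 and 46.4 in the in vitro positive and 61.1 and 63.4 in the in vitro negative libraries, and between 73.8 and 83.5 against 67.4 and 84.9 in vivo. Mrpl20 had a median of 90.3, with its summit 613 bases inside the gene, and Mrps22 a median of 98.1. The lists differ in length, so these percentiles are given side by side and cannot show whether accessibility differed between populations.

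**Figure D4:**
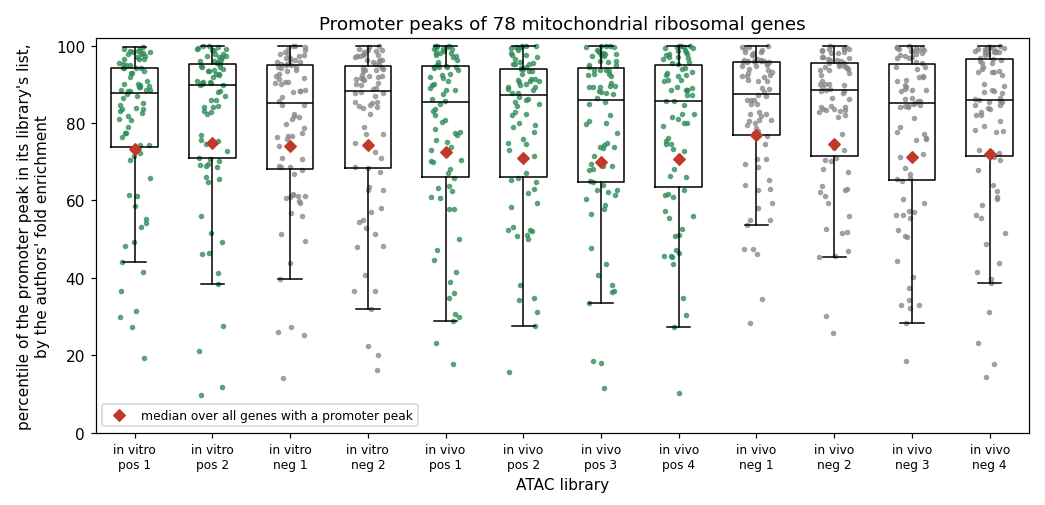
Percentile of each member's promoter peak within its own library's list by the authors' fold enrichment (vertical axis), for the 12 ATAC libraries, with 1 point per gene, boxes of quartiles and a red diamond at the median over all genes with a promoter peak. The member medians, 85.1 to 89.9, lie above the diamonds, 69.9 to 76.8, in every library.

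Neighbours with close starts on opposite strands were counted next. A start on the opposite strand lay within 1000 bases of the start of 29 members (37.2%), against 16.4% of all listed genes. Pairs with overlapping bodies count in both shares, as for Mrpl43 with Twnk, Mrpl48 with Rab6a and Mrpl21 with Ighmbp2. Mrpl46 and Mrps11, a large and a small subunit gene, were the 1 pair made of members alone, with starts 42 bases apart on chromosome 7. They shared 1 peak, with a median percentile of 95.0. This pair and those that follow were chosen after their values were seen. Their RNA differed in sign, with log2 differences of 0.07 ± 0.08 for Mrpl46 and -0.12 ± 0.09 for Mrps11, and neither was called. Mrps12 faced Sars2, a mitochondrial seryl-tRNA synthetase gene, at 187 bases, and Mrpl47 faced Ndufb5, a complex I subunit gene, at 308 bases.

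RefSeq promoters were matched for 69 members and for 10346 of all listed genes. The RefSeq start lay 10282 bases from the listed start for Mrps23, 310 for Mrps10 and 305 for Mrpl48. For these members the motif window did not overlap the window used for ATAC peaks. They were named after their distances were seen. The ETS letters CCGGAAG stood in 25 member promoters (36.2%), against 18.5% of all matched promoters. The YY1 letters AAGATGGC stood in 12 (17.4%, against 4.74%) and the NRF1 letters GCATGCGC in 8 (11.6%, against 5.48%). At least 1 of these 3 was in 37 member promoters (53.6%), against 26.2%. The E-box CACGTG was in 5 (7.25%, against 10.2%) and the SP1 letters GGGCGG in 34 (49.3%, against 64.2%). All windows were 300 bases long, both strands were searched, and no motif string contains another. Median GC content was 58.3% in members and 60.7% in all promoters.

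Of the 30 ETS matches in member promoters, 27 began between 100 bases before the start and the end of the window. The median position of the 30 was 16.5 bases before the start. That placement is seen in Mrps22, Mrpl3 and Mrps12 above. YY1 matches had a median position 15 bases after the start, and that of Mrps7 lay near it. Positions were not counted over all matched promoters, so neither placement is shown to be particular to members. By subunit, ETS stood in 32.6% of large and 42.3% of small subunit promoters, YY1 in 14% and 23.1%, NRF1 in 16.3% and 3.85%, and SP1 in 39.5% and 65.4%. Of the 13 called members with a matched promoter, 4 held the ETS and 2 the YY1 letters, against 21 and 10 of the 56 not called. NRF1 stood in 1, the E-box in 2 and SP1 in 7 of the 13, against 7, 3 and 27 of the 56. These differences were not tested. A match is a run of letters and not a measured binding site.

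**Figure D5:**
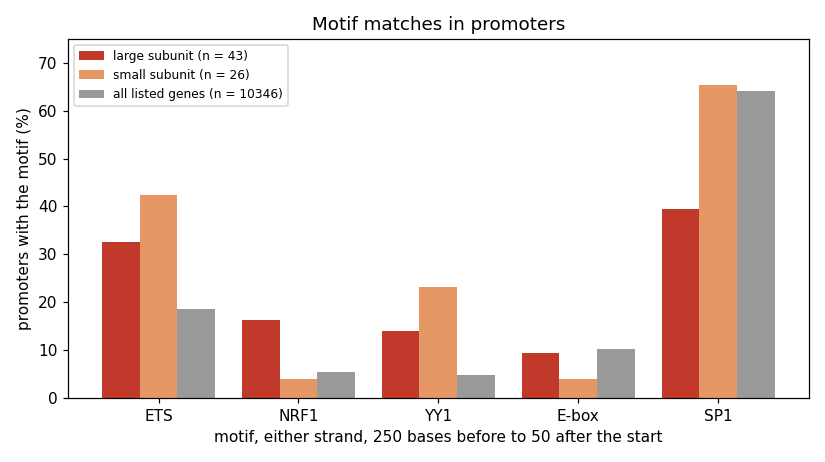
Share of promoters that hold each motif on either strand (vertical axis, percent) for 43 large subunit, 26 small subunit and 10346 listed genes. ETS and YY1 bars of both subunits stand above the bars of all listed genes, NRF1 does so in the large subunit only, and the E-box bars do not.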

How the data were processed

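RNA and open chromatin were measured in sorted CD8+ T cells. The authors deposited estimated counts per gene, not scaled. For RNA, STAR, DESeq2 and Partek are named in the submitters' processing notes, and for ATAC cutadapt, BWA, MACS2 and Partek, with the mm10 build throughout. Counting method, strandedness and any shift for the Tn5 cut are not given in the sources used here. The ATAC lists deposited by the authors give, per the file headers, each peak's pileup signal, fold enrichment, and -log10 of the p-value and q-value. Every peak names 1 library, so peaks were called per library. The smallest -log10 q was 1.302.

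Estimated counts were rounded and tested with edgeR 4.0.16 (R 4.3.3): filterByExpr by group, TMM scaling, quasi-likelihood test, no block, Benjamini-Hochberg adjustment over 12022 genes, threshold 0.05. Levels are CPM on TMM-scaled library sizes. Totals of 14567545 to 17557633 put 3 counts at 0.167 to 0.210 CPM. Leaving a library out assumes that the lone library of its group varies like the other group. The script was tested on simulated data. Alternatives were other scaling, filters, DESeq2 1.42.0, a replicate block and leaving out each library. Leaving out Rn45s, leaving out members that overlap another gene, and reclassing 2 S18 paralogues were added after seeing the data. Peaks counted at an overlap of at least 1 bp. Gene positions are those of the count table, and promoter sequences are from RefSeq. No gene lengths were used here, so levels are not ranked between genes.

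Named were the up to 6 called members per subunit with the largest change in each direction, the 3 with the smallest, members of short role lists, and up to 3 called genes per direction of each pathway list. The members and lists were chosen with earlier results of these data known. A B cell marker of the lists is not reported here.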

Additional observations from a re-analysis of the deposited data

Results flagged for a closer look

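The share of all listed genes with a promoter peak was 80.9% in in vivo positive replicate 1 and 84.3% to 84.6% in the other in vivo positive libraries. This library lay far from its group, with a gap to its nearest neighbour of 0.914 of the group's range, above Dixon's 95% critical value for 4 samples, which chance passes in about 1 of 20 groups. Its list was also the shortest, with 27406 peaks. All 78 mitochondrial ribosomal promoters had a peak in it.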

How the results depend on the processing

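No member was called lower in any setting tried. The 14 higher calls were 26 when libraries were scaled by library size alone (18 in the large subunit), 4 with DESeq2 (2 large, 2 small) and 8 above 1.2-fold (4 large). Leaving out 1 library gave 7 to 18 (large 4 to 13, small 3 to 5). With library size alone, medians were 0.195 (large), 0.171 (small) and 0.0645 (all genes), and 65.1% of all calls were higher, against 45.4% under TMM. Leaving out 1 library moved the medians to 0.0964 to 0.161 and 0.0703 to 0.126. The replicate block gave 21 calls (15 large), the 14 among them. Deviations of the replicate 1 libraries from their group means had a correlation of 0.0489 over 12022 tested genes. With 2 libraries a group, replicate 2 deviates as the mirror of replicate 1 and adds no separate value. Whether same-numbered libraries share a source is not stated in the labels. With an overlap of at least 150 bp, 1 member, Mrpl36 (named after its values were seen), met the rule for positive cells only in vitro. At the overlap of at least 1 bp its promoter had a peak in 2 in vitro positive and 2 in vitro negative libraries. It was thus not open in positive cells alone. The share of all genes that met the rule at 150 bp was not counted. Members near 0 changed sign, and a positive log2 difference was found for 59 members under TMM and 70 with library size alone. Among those that turned positive with library size alone, Mrpl38 was 0.0594, Mrpl9 0.0589, Mrps34 0.0435, Mrpl24 0.0532, Mrpl45 0.033 and Mrps18c 0.00129. With a 5 CPM filter Mrpl10 was -0.00277. Without 1 library, log2 differences ran from -0.0784 to 0.0683 for Mrpl38, -0.0547 to 0.0484 for Mrpl9, -0.0366 to 0.0486 for Mrpl10, -0.107 to 0.131 for Mrps33, -0.0521 to 0.0873 for Mrps30, -0.0886 to 0.0562 for Mrps34, -0.0948 to 0.381 for Mrpl23, -0.103 to 0.0779 for Mrpl24, -0.0801 to 0.0245 for Mrpl45, -0.0316 to 0.275 for Mrps24 and -0.149 to 0.0295 for Mrps18c. The 10 called members other than Mrpl12, Mrpl20, Mrps6 and Mrps7 lost their calls with DESeq2 (adjusted p from 0.0761 to 0.213). The causes were not tested. With 2 libraries a group, small differences are weakly resolved.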
